A study of Rattus norvegicus with 12 samples.

Results

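The genes described here encode the translation initiation factors of rat N27 cells, together with the kinases that phosphorylate eIF2 and the proteins that bind eIF4E. Members were all probes, other than controls, whose gene name in the array files began with Eif and a digit. They numbered 82 of 45598 probes and stood for 53 genes. Of these, 52 genes were among the 13542 tested, read by 77 probes that cleared the background filter, set at 6 arrays of the 12. The exception was Eif2s3y, whose probe did so on 0 arrays. Eif4e3 was above background on 1 fipronil and 5 control arrays, and the other 51 members tested were above it on all 12.

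N27 is an established line of immortalised rat mesencephalic cells. Treated cells were exposed to 25 µM fipronil, a phenylpyrazole insecticide, for 24 h (6 arrays), and the control cells were left untreated (6 arrays), with no vehicle named in the labels. Total RNA was labelled with Cy3 and hybridised to one-colour Agilent arrays. Nothing in the labels says whether samples came from separate cultures, so the p-values cover only variation among these samples, and that variation may be technical.

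Treatment and slide nearly coincided. Fipronil replicates 7 and 8 shared slide 1 with control replicates 2 and 3, whereas fipronil replicates 1 to 4 lay alone on slide 3 and control replicates 5 to 8 alone on slide 2. The 75th percentile of processed signal was 111 to 246 intensity units on fipronil arrays and 269 to 472 on control arrays. It went with the slide. On slide 1 it was 246 and 245 on fipronil arrays, against 279 and 269 on control arrays. Fipronil arrays of slide 3 had 111 to 140, and control arrays of slide 2 had 379 to 472. Fipronil replicate 8 had the lowest mean correlation with the other fipronil arrays over all genes tested, 0.954, against 0.970 with the control arrays. Fipronil replicate 7, also on slide 1, had 0.972 and 0.977. Fipronil replicates 1 to 4 on slide 3 had 0.967 to 0.972 with fipronil arrays and 0.961 to 0.967 with control arrays. As for the labelled dopaminergic identity, 2 of 7 dopaminergic markers were tested, Th (above background on all 12 arrays) and Aldh1a1 (on 2 fipronil and 6 control arrays), and Slc6a3, Ddc and Pitx3 were above it on 0. Of 7 neuronal markers, Ncam1 and Eno2 were above it on all 12 and Tubb3 on 4 fipronil and 5 control arrays, and Map2, Rbfox3, Syp and Snap25 on 0. Of 3 mesenchymal markers, Col1a1 and Vim were above it on all 12 and Pdgfra on 0. Ncam1, a neural adhesion gene, was higher in fipronil cells by 0.73 on the log2 scale (limma adjusted p 0.0171). The mesenchymal gene Col1a1 was higher by 0.98 (adjusted p 0.0375). The other tested markers of these lists differed by 0.42 for Eno2 (adjusted p 0.182), -0.355 for Tubb3 (0.678) and 0.10 for Vim (0.593). Th differed by -0.48 (adjusted p 0.152) and Aldh1a1 by -0.84 (0.0678). The microglial and leukocyte marker Cd68, above background on all 12 arrays, differed by 0.32 (adjusted p 0.133). The part of these markers in the results was not tested. In a lysate of whole cells, fewer cells of a type and less RNA per cell cannot be told apart.

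Initiation begins when eIF2, bound to GTP, brings the initiator tRNA to the small ribosomal subunit, which also carries eIF1, eIF1A and eIF3. The complex is loaded onto mRNA by the cap-binding assembly eIF4F and scans to the start codon, where eIF5 triggers GTP hydrolysis and eIF5B joins the large subunit. Phosphorylation of eIF2 by HRI, PKR, PERK or GCN2 (Eif2ak1 to Eif2ak4) blocks its recycling by eIF2B and lowers general translation, and the 4E-BPs hold eIF4E back when mTORC1 is inactive.

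Array differences were read through single 60-base probes. The probes printed here are those of the 3 members that passed the test, followed by Eif2s1 and Eif1a, whose difference depended on the slide, and by Eif3d, the member with the probe richest in GC. Bases G and C are in capitals, because the differences on separate slides described below moved with the GC content of the probe. The sequences come from the array files, and coordinates are those of the files on assembly rn4. The Eif1ax probe lies at chrX:56700752-56700811 on the minus strand and has a GC content of 35%. The Eif1b probe, also at 35%, spans chr8:125500937-125501263 on the plus strand, an interval longer than the probe. The files give no position for the Eif4a3 probe. That of Eif2s1 lies at chr6:101520038-101520097 and that of Eif1a at chr18:40820149-40820208, both on the plus strand. Eif3d is read at chr7:115878137-115878196 on the minus strand by a probe with 55% GC.
Eif1ax: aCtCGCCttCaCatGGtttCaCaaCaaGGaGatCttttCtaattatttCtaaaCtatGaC
Eif1b: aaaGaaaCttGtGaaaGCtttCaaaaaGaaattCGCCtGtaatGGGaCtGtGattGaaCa
Eif4a3: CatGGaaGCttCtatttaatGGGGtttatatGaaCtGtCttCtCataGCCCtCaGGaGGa
Eif2s1: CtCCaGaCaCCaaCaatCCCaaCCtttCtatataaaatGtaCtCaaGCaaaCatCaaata
Eif1a: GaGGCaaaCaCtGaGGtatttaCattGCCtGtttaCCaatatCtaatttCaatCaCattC
Eif3d: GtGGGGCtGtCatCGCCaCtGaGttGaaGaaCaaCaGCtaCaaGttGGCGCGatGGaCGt

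After fipronil, transcripts of the scanning factor eIF1A (Eif1ax), of the eIF1 relative encoded by Eif1b, and of the helicase Eif4a3 were lower, and no other member passed the test. Values are log2 processed signal minus each array's 75th percentile, and the test was limma over 13542 genes with Benjamini-Hochberg adjustment and a threshold of 0.05. Of the 52 members, 3 were called (5.77%), all lower. Of all genes tested, 5.01% were called, 2.77% lower and 2.24% higher, so the members' share lay near that of the array. At an unadjusted p under 0.05 there were 14 members, against 25% of all genes. The median difference was -0.10 over the members and -0.08 over all genes.

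Eif1ax, on chromosome X, encodes eIF1A, which with eIF1 keeps the small subunit open for scanning. Its level was -0.97 at the lowest, -0.70 at the median and -0.53 at the highest in fipronil cells, against -0.04, 0.04 and 0.33 in control cells. All 6 fipronil arrays were below all 6 control arrays. It averaged -0.70 ± 0.15 in fipronil cells and 0.09 ± 0.14 in control cells (SD, n = 6 each), a 1.73-fold fall. The log2 difference was -0.79 ± 0.11 (SE, limma adjusted p 0.00551), and it was -0.72 within slide 1 and -0.83 between slides 3 and 2. All 12 refits with 1 array dropped kept the call of Eif1ax. Its probe shared no run of more than 8 bases with either probe of its paralog Eif1a. Probes were compared with probes alone, so this cannot show whether the Eif1ax probe also reads Eif1a transcripts.

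Eif1b, on chromosome 8, encodes a close relative of eIF1, the factor that guards start codon selection. In fipronil cells the lowest, median and highest log2 levels were -2.67, -2.24 and -1.78, and in control cells they were -1.70, -1.58 and -1.15. The groups did not overlap, though the highest fipronil and lowest control arrays lay close. The mean was -2.20 ± 0.34 in fipronil cells and -1.47 ± 0.24 in control cells (SD, n = 6 each), a 1.66-fold fall. The log2 difference was -0.73 ± 0.17 (SE, limma adjusted p 0.0306), with -0.52 within slide 1 and -0.83 between slides 3 and 2. With normexp correction scaled to the 75th percentile the difference was -0.13 (limma adjusted p 0.386), and of 12 refits with 1 array dropped the call held in 5.

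Eif4a3, on chromosome 10, encodes a DEAD-box helicase related to eIF4A that sits in the exon junction complex and is not part of eIF4F. Its log2 level ran over 2.82, 2.98 and 3.15 (lowest, median, highest) in fipronil cells and over 3.18, 3.44 and 3.59 in control cells. Again no fipronil array reached any control array. Means were 2.97 ± 0.11 in fipronil cells and 3.42 ± 0.15 in control cells (SD, n = 6 each), a 1.37-fold fall. Eif4a3 differed by -0.45 ± 0.11 on the log2 scale (SE, limma adjusted p 0.0307), by -0.41 within slide 1 and by -0.47 between slides 3 and 2. Of 12 refits with 1 array dropped, 4 kept the call.

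Groups did not overlap in 4.18% of all genes, and among the members these 3 were the cases. When slide entered the limma fit as a fixed block, so that the treatment effect rests on the 4 arrays of slide 1, 0 members were called, with 12 at an unadjusted p under 0.05, and 0.0886% of all genes were. At an unadjusted p under 0.05 there were 19% of all genes in that fit. The lowest member adjusted p was 0.116, shared by Eif4e and Eif1ax. With slide as a random block Eif1ax alone among the members stayed past the threshold, with an adjusted p of 0.0453.

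**Figure D1:**
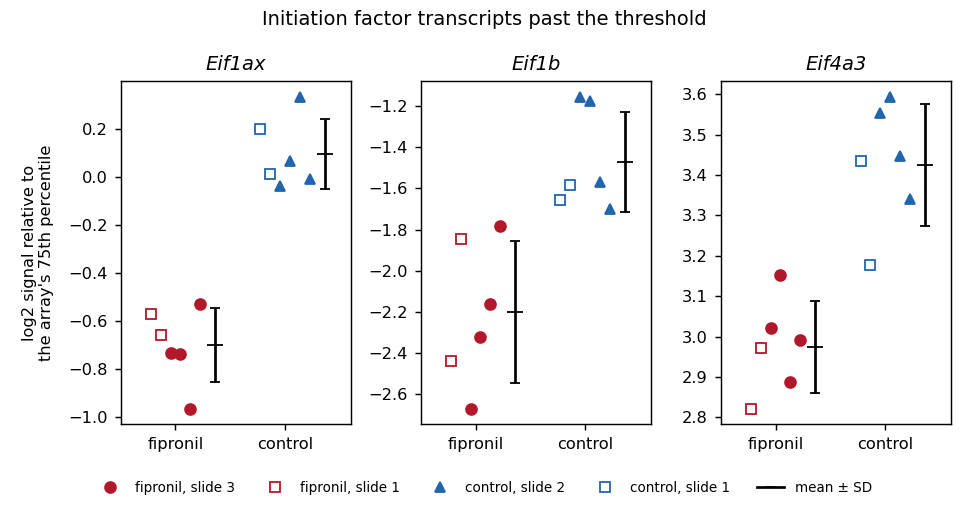
Log2 signal relative to each array's 75th percentile (y axis) of Eif1ax, Eif1b and Eif4a3 in fipronil and control cells. Each point is 1 array, with open squares for slide 1, and bars show the mean ± SD of 6 arrays. In each panel all 6 fipronil arrays lie below all 6 control arrays.

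The other eIF1 family members did not pass. Eif1, which encodes eIF1 itself, had a log2 difference of -0.34 ± 0.18 (SE, limma adjusted p 0.245), and -0.23 on slide 1. Eif1a, the autosomal paralog of Eif1ax on chromosome 18, gave a difference of 0.25 (adjusted p 0.70), with -1.15 on slide 1 and 0.96 between slides 3 and 2. Its second probe gave -0.39 over the 12 arrays and -1.58 on slide 1. Eif1ad, which encodes a protein with an eIF1A-like domain, differed by 0.03.

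Transcripts of the 3 eIF2 subunits were each higher on average across the 12 arrays, yet lower on average on the slide that held both treatments, and 0 of 3 passed the test. For Eif2s2 and Eif2s3 the fipronil and control arrays of that slide overlapped. Eif2s1 encodes the alpha subunit, the one that the kinases phosphorylate. Its log2 level was 3.22 and 3.06 in fipronil replicates 7 and 8 on slide 1, against 3.78 and 3.61 in control replicates 2 and 3. On the other slides it ran from 4.12 to 4.62 in fipronil cells and from 3.07 to 3.49 in control cells. The 2 fipronil arrays of slide 1 were therefore below both controls beside them, while the 4 of slide 3 were above every control array. Over the 12 arrays the Eif2s1 difference was 0.55 ± 0.27 (SE, limma adjusted p 0.217), against -0.56 on slide 1 and 1.11 between slides 3 and 2.

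Eif2s3, on chromosome X, encodes the gamma subunit that holds GTP and the initiator tRNA. Its difference was 0.55 (limma adjusted p 0.169), with -0.32 on slide 1 and 0.99 between slides 3 and 2, and its second probe gave -0.09. Eif2s2, for the beta subunit, differed by 0.32 (adjusted p 0.34), with -0.03 on slide 1. The second Eif2s2 probe gave 0.16 over the 12 arrays and -0.82 on slide 1. In fipronil replicate 7 Eif2s2 and Eif2s3 were above the mean of the slide 1 controls by 0.48 and 0.18, and in fipronil replicate 8 they differed from it by -0.55 and -0.82. The sign of the 12-array difference of the 3 subunits held under quantile, median and normexp scalings, in the deposited table and with the GC trend removed.

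The guanine nucleotide exchange factor eIF2B was lower in all 5 of its subunits over the 12 arrays, none past the threshold. Of all 13542 genes, 8088 were lower, with a median of -0.08. Eif2b1, for the alpha subunit that senses phosphorylated eIF2, stood furthest from 0, at -0.67 ± 0.22 (SE, limma adjusted p 0.0908) over 12 arrays and -0.48 on slide 1. Its log2 level ran from -2.58 to -1.52 in fipronil cells and from -1.97 to -0.94 in control cells, and the groups overlapped. Eif2b4 differed by -0.28 and Eif2b2 by -0.25. Eif2b3 and Eif2b5 differed by -0.04 each, with an SE of 0.19 and 0.13, so no direction can be given for these genes. On slide 1, 3 of the 5 were higher, with 0.46 for Eif2b3. With the GC trend removed Eif2b5 turned to 0.01, and in the other scalings all 5 remained below 0.

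The eIF2 kinases showed no difference that passed. Eif2ak1 encodes HRI, which responds to heme shortage and mitochondrial stress, and differed by 0.08 ± 0.13 (SE, limma adjusted p 0.737). Eif2ak3 encodes PERK, the kinase of the endoplasmic reticulum, and differed by 0.01 ± 0.17 (adjusted p 0.967). Eif2ak4 encodes GCN2, which senses uncharged tRNA, and differed by 0.06 ± 0.14 (adjusted p 0.831). Under median scaling these became -0.02, -0.09 and -0.04, so no direction can be given for them. With normexp correction scaled to the 75th percentile, under which 50% of all genes were called, Eif2ak3 was at 0.38 (adjusted p 0.0161).

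Eif2ak2, which encodes the RNA-activated kinase PKR, varied most among arrays. Its log2 level was -0.96 and -3.03 in fipronil replicates 7 and 8, against -0.44 and -0.67 in control replicates 2 and 3. On slide 3 fipronil cells had -1.98 to -0.78, and on slide 2 control cells had -2.28 to -0.60. Thus replicate 8 lay below every other array, and the remaining groups overlapped. The difference was -0.20 ± 0.43 (SE, limma adjusted p 0.812) over the 12 arrays and -1.44 on slide 1, where the second probe gave -1.34. Of the proteins that deliver the initiator tRNA by other routes, Eif2a differed by -0.04 and Eif2d by -0.14, with -0.86 and 0.20 on slide 1.

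**Figure D2:**
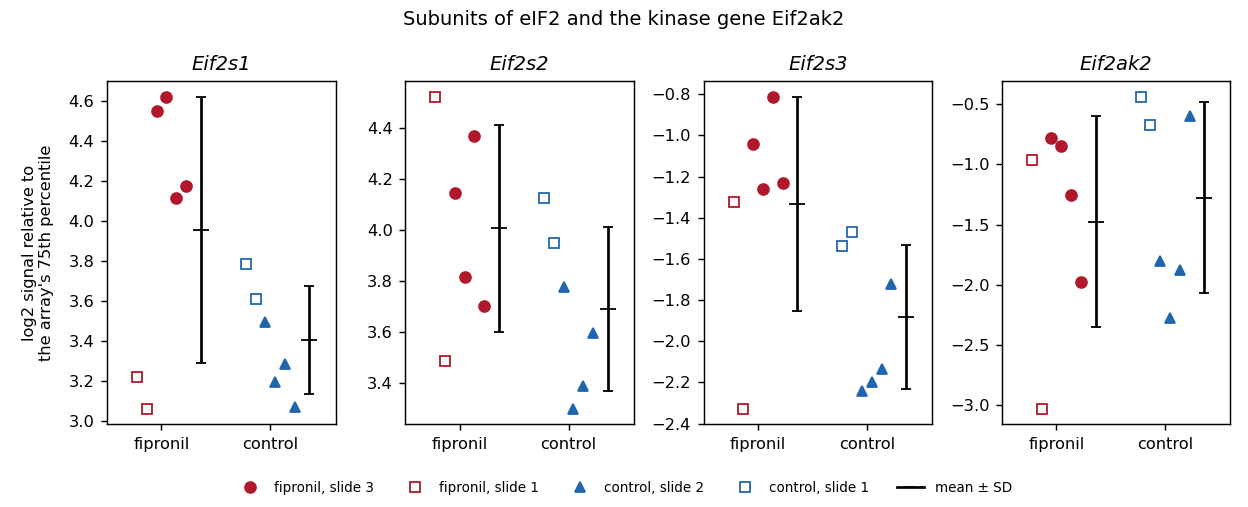
Log2 signal relative to each array's 75th percentile (y axis) of the eIF2 subunit genes Eif2s1, Eif2s2 and Eif2s3 and of the kinase gene Eif2ak2 in fipronil and control cells. Each point is 1 array, with open squares for slide 1, and bars show the mean ± SD of 6 arrays. For Eif2s1 both fipronil arrays of slide 1 lie below the slide 1 controls, and the 4 of slide 3 lie above all controls.

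The eIF3 scaffold, which ties the small subunit to eIF4F, was represented by 13 subunits, of which 0 passed the test in limma and 2 had an unadjusted p under 0.05. Their median log2 difference was -0.08. Eif3f was the highest of them, at 0.54 ± 0.18 (SE, adjusted p 0.0933), with 0.37 on slide 1 and 0.62 between slides 3 and 2. It ran from 3.33 to 4.24 in fipronil cells and from 2.97 to 3.67 in control cells, with fipronil replicates 7 and 8 the lowest 2 of their group and within the control range. Eif3l was the lowest, at -0.43 (adjusted p 0.199). On slide 1, Eif3e, Eif3a, Eif3j and Eif3m differed by -1.01, -0.98, -0.79 and -0.57, and all 4 were without overlap there. Eif3f, Eif3k and Eif3h were higher without overlap, by 0.37, 0.25 and 0.16. Of all genes, 28.5% were lower and 25.2% higher in this way. Fipronil replicates 7 and 8 were below the mean of the slide 1 controls by different amounts, with -0.45 and -1.56 for Eif3e and -0.24 and -1.71 for Eif3a.

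Of the 14 genes with an eIF4 name, the exon junction helicase gene Eif4a3 passed, and no tested gene of the cap-binding complex or its regulators did. No probe had the gene name Eif4g1, so that scaffold gene was not among them. Eif4e encodes the cap-binding subunit. It had -2.04 and -1.86 in fipronil replicates 7 and 8, against -1.02 and -0.98 in control replicates 2 and 3, so both treated arrays of slide 1 were lower than their controls. On slide 3 fipronil cells had -1.75 to -0.87, and on slide 2 control cells had -1.70 to -1.34. The difference was -0.16 ± 0.21 (SE, limma adjusted p 0.651) over the 12 arrays, -0.95 on slide 1 and 0.23 between slides 3 and 2. The helicase genes Eif4a1 and Eif4a2 differed by -0.21 and 0.08, and by -0.47 and -0.27 on slide 1.

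Eif4g3, for the scaffold eIF4G3 on chromosome 5, lay just outside the threshold, at 0.70 ± 0.19 (SE, limma adjusted p 0.053). It ran over -1.87, -1.14 and -0.89 (lowest, median, highest) in fipronil cells and over -2.49, -1.83 and -1.58 in control cells. On slide 1 it had -1.36 and -1.87 in fipronil cells, against -1.65 and -1.58 in control cells, and the difference between the means there was 0.00. It passed under quantile normalization (adjusted p 0.0485), in the deposited table, which is itself quantile normalized (0.0483), and with the GC trend removed (0.0358). With slide as a fixed block in limma it did not pass (adjusted p 0.9999). Between slides 3 and 2 its difference was 1.05. Eif4g2, which encodes a relative of eIF4G that lacks the eIF4E site, differed by -0.25 (adjusted p 0.177). Its 4 kept probes ran from -0.32 to 0.21. The cap-binding relative Eif4e3 differed by -0.58 (adjusted p 0.137) and turned to 0.56 (adjusted p 0.00628) with normexp correction scaled to the 75th percentile.

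The 4E-BP genes gave differences of 0.17 for Eif4ebp1, 0.31 for Eif4ebp2 and 0.08 for Eif4ebp3, none past the threshold. Eif4ebp1 turned to -0.08 with normexp correction scaled to the 75th percentile, and Eif4ebp3 to -0.03 under median scaling. Under the same normexp setting Eif4ebp2 was at 0.38 (limma adjusted p 0.00756) and Eif4ebp3 at 0.31 (adjusted p 0.0424). Eif4ebp1 had 4.03 and 4.27 in fipronil replicates 7 and 8, against 3.37 and 3.39 in control replicates 2 and 3, a difference of 0.77 on slide 1. On slide 3 fipronil cells had 3.94 to 4.55. Among controls of slide 2 it was 4.84 and 4.88 in replicates 5 and 6, and 3.81 and 3.72 in replicates 7 and 8. Control replicates 5 and 6 thus exceeded every fipronil array, and the other 4 controls lay below every one.

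Downstream of scanning, the GTPase activator Eif5, the hypusine-carrying factors Eif5a and Eif5a2 and the joining factor Eif5b all had differences below 0, from -0.57 to -0.15, and 0 of 4 passed. Of all 13542 genes, 8088 had a difference below 0. Eif5a2 turned to 0.33 with normexp correction scaled to the 75th percentile. Eif5a had a log2 difference of -0.57 ± 0.17 (SE, limma adjusted p 0.0626), and -0.19 on slide 1. Its lowest, median and highest log2 levels were 2.88, 3.15 and 3.85 in fipronil cells and 3.55, 3.74 and 4.12 in control cells, and replicate 8 was the one fipronil array within the control range. Eif5b differed by -0.48 (adjusted p 0.368) and by -1.20 on slide 1. Eif6, which keeps the large subunit from joining too early, was at -0.48 ± 0.16 over the 12 arrays (SE, adjusted p 0.0803) and at -0.21 within slide 1. A second kept probe under the name Eif6 gave -0.06 (adjusted p 0.858, over all kept probes). Its coordinates lie on chromosome 14, close to those of the Eif6-ps1 probe, whereas Eif6 is on chromosome 3. Which gene that probe reads was not tested. The row named Eif6-ps1, a pseudogene of Eif6, differed by -0.41 (adjusted p 0.0837).

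**Figure D3:**
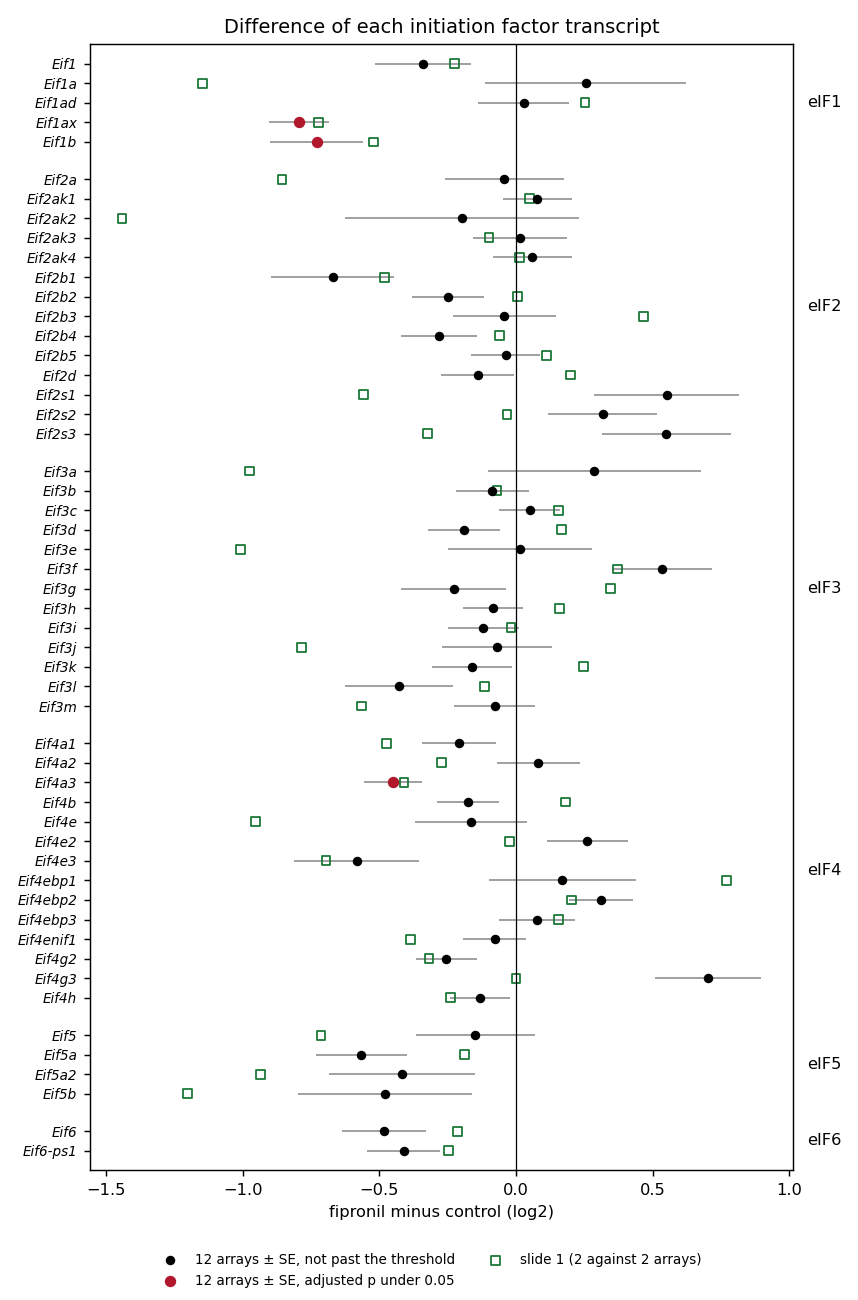
Fipronil minus control difference (x axis, log2) of the 52 members tested, grouped by factor number. Filled points with bars are 12-array differences ± SE, red where the adjusted p is under 0.05, and open squares are slide 1 differences. The 3 red points all lie below 0, and the open squares of Eif2s1, Eif2s2 and Eif2s3 lie on the other side of 0 from their filled points.

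On slide 1 alone, 34 of the 52 members were lower and 18 higher (28 and 24 under median scaling), and the median was -0.20, against -0.02 for all genes. Without overlap between the 2 fipronil and 2 control arrays there were 19 lower members (36.5%) and 7 higher (13.5%), against 28.5% and 25.2% of all genes. An exact permutation test of 2 arrays against 2 cannot give a two-sided p below 0.333, so these are descriptions. Against the mean of the slide 1 controls, fipronil replicate 7 had 33 members lower and a median of -0.25, and fipronil replicate 8 had 30 lower and a median of -0.11.

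The differences on slide 1 and between slides 3 and 2 had opposite signs in 28 of 52 members and in 7609 of all 13542 genes, so the members' share lay near that of the array. Of the members, 18 were lower and 6 higher in both, 16 were lower on slide 1 and higher between slides 3 and 2, and 12 the reverse. A limma interaction term, which tests the difference between these differences, was past the threshold for 7 members (13.5%), against 9.14% of all genes. These were Eif1a, Eif2a, Eif2s1, Eif2s3, Eif3e, Eif3j and Eif4e, each lower on slide 1. The largest gap was that of Eif1a (-2.10, adjusted p 0.0437), and the smallest adjusted p was that of Eif2s1 (-1.66, adjusted p 0.0115). Of the 7 members, 6 had their lowest value of the 12 arrays in fipronil replicate 8. Without that replicate 0 members were past the threshold, with a lowest adjusted p of 0.0631, and 0.111% of all genes were. Without fipronil replicate 7 it was 11 members and 18.7% of all genes.

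Slide 1 differences moved with the GC content of the probe. Spearman's rho between probe GC content and the difference was 0.41 over the 52 members on slide 1 and -0.24 between slides 3 and 2, and over all genes it was 0.33 and -0.31. For the 12-array differences it was -0.08 over the members and -0.15 over all genes. Members and genes are not independent, and all points share the same arrays. Of the 12 members whose probe had a GC content of 35% or less, 10 were lower on slide 1, with a median of -0.54. The members' deviations from their 12-array mean also moved with GC on single arrays of both groups. Spearman's rho was -0.30 and 0.47 in fipronil replicates 7 and 8, against -0.46 and -0.40 in control replicates 2 and 3, and it was 0.38 and 0.36 in control replicates 5 and 6. The part of probe composition in these differences was not tested beyond a fit with the GC trend removed. In that fit 32 of 52 members were lower on slide 1. Eif1ax and Eif4a3 stayed past the threshold with limma adjusted p of 0.0070 and 0.0394, while Eif1b did not (adjusted p 0.0552). Eif4g3 passed there too, higher by 0.74 (adjusted p 0.0358). In all, 3 members were called in that fit, against 6.19% of all genes.

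**Figure D4:**
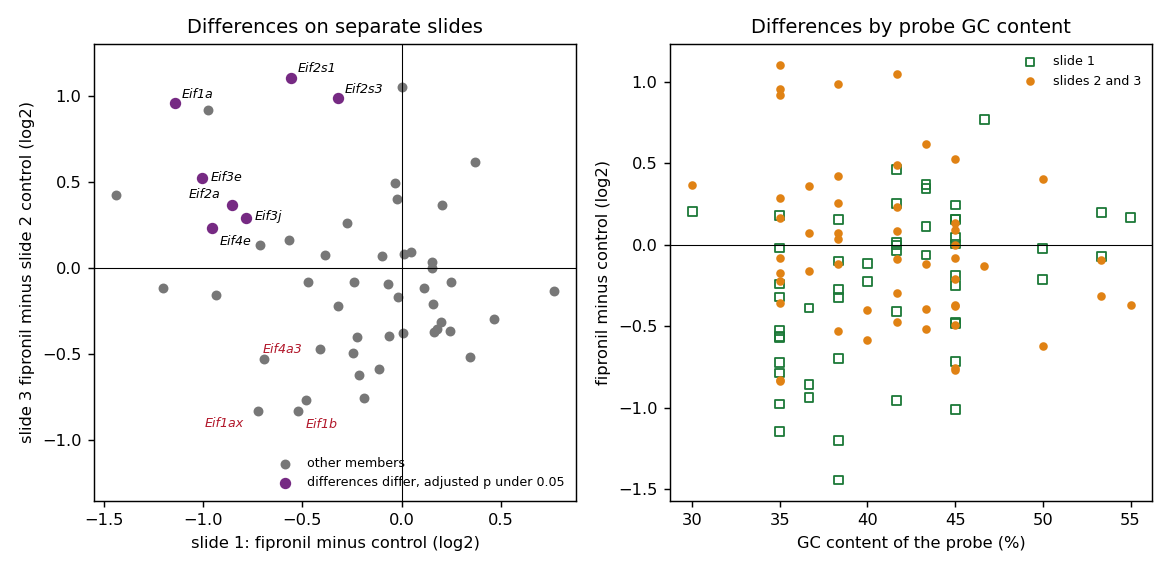
Left, slide 3 fipronil minus slide 2 control difference (y axis, log2) against the slide 1 difference (x axis, log2) of 52 members, purple where the 2 differences differ with an adjusted p under 0.05. Right, both differences (y axis, log2) against probe GC content (x axis, %). The 7 purple points are all lower on slide 1 and higher between slides 3 and 2, and the lowest slide 1 differences lie mostly on the low-GC side.

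Of the 19 members with more than 1 kept probe, 9 had probes that differed in sign over the 12 arrays, and 2, Eif1ad and Eif5a2, did so on slide 1. The 9 were Eif1a, Eif1ad, Eif2ak2, Eif2s3, Eif3e, Eif4a2, Eif4b, Eif4g2 and Eif5, and 0 of their probes passed in limma. With every kept probe tested on its own, 3 of the 77 member probes were called, those of the 3 genes above, against 5.3% of all 16291 kept probes. For Eif4b, a cofactor of the helicase, the brighter probe gave -0.18 and the dimmer 0.34. Eif4a2 gave 0.08 with the brighter probe and -0.34 with the dimmer. Each of the 3 called members had 1 probe, so no second probe was at hand for them. RefSeq names 71 pseudogenes for 27 of the members, and transcripts of such copies cannot be told apart from the member's own where a probe matches both.

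**Figure D5:**
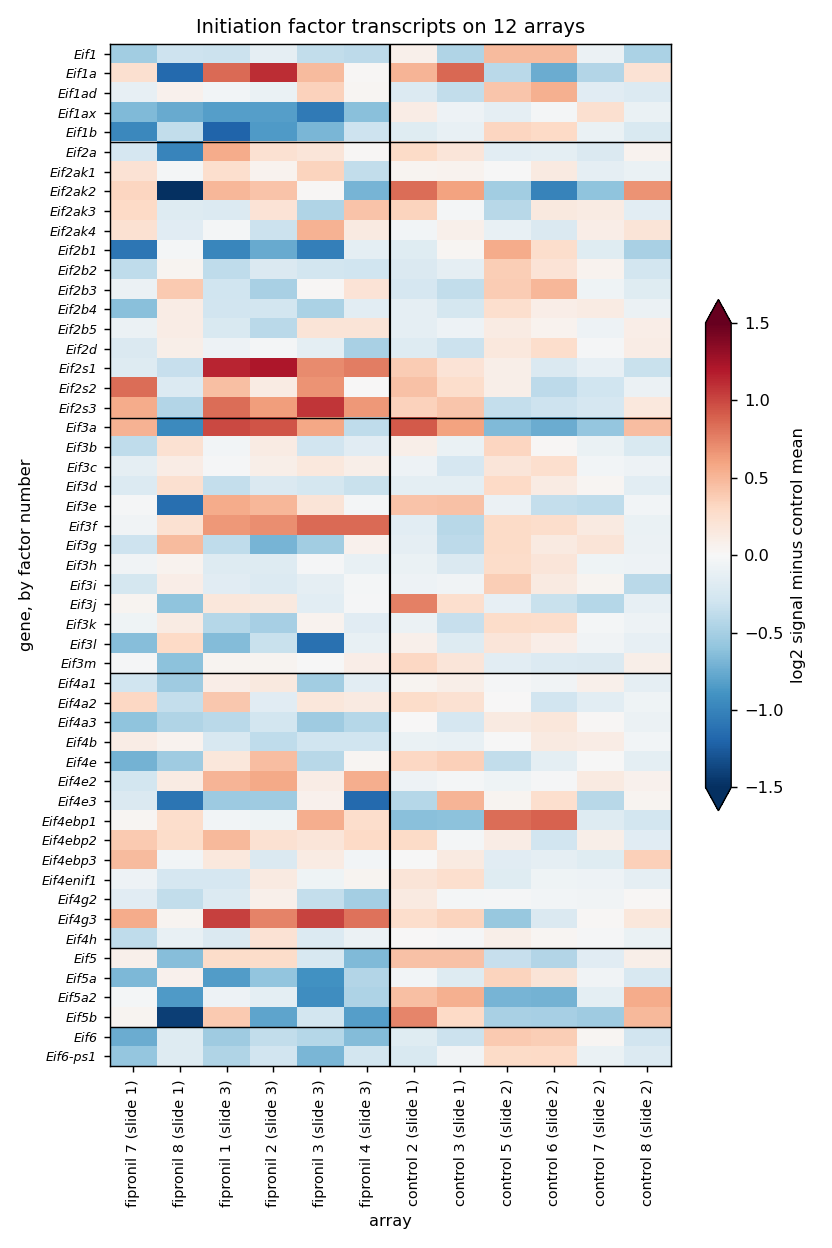
Log2 signal minus the control mean (colour) of the 52 members tested (rows, by factor number) on the 12 arrays (columns). Fipronil arrays are left of the line, with their slide in the label. Eif1ax, Eif1b and Eif4a3 are below 0 on all 6 fipronil arrays, fipronil replicate 8 holds the lowest value of the 12 arrays for 12 members, and control replicate 5 the highest for 11.

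Among 46 tested genes that act with the initiation factors, 2 were called, both lower, against 5.01% of all genes called and 2.77% called lower. Gspt1, which encodes the termination factor eRF3a, had log2 levels of -0.52, -0.27 and -0.08 (lowest, median, highest) in fipronil cells and of 0.07, 0.25 and 0.47 in control cells. It fell 1.41-fold, a log2 difference of -0.50 ± 0.11 (SE, limma adjusted p 0.0284), with -0.48 on slide 1. Rps6kb2, for an S6 kinase downstream of mTORC1, ran over 0.39, 0.88 and 1.06 in fipronil cells and over 1.18, 1.32 and 1.48 in control cells. It fell 1.44-fold, a log2 difference of -0.52 ± 0.13 (SE, adjusted p 0.0334), with -0.41 on slide 1. For both, no fipronil array reached the control range. With slide as a random block neither stayed past the threshold, with limma adjusted p of 0.0999 for Gspt1 and 0.148 for Rps6kb2. The call of Gspt1 held in 4 and that of Rps6kb2 in 2 of 12 refits with 1 array dropped. Mtor itself differed by -0.41 (adjusted p 0.286).

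None of the 13 tested genes of the eIF2 phosphorylation response passed, with 3 at an unadjusted p under 0.05 in limma. Atf4, the factor translated when eIF2 is phosphorylated, differed by -0.23 (adjusted p 0.481), and the phosphatase subunit Ppp1r15a by -0.20 (adjusted p 0.539). On slide 1, however, 8 of the 13 were higher and 2 lower without overlap, against 25.2% and 28.5% of all genes. Between slides 3 and 2, 6 of the 13 were higher and 7 lower. All 5 tested genes of scanning, recycling and subunit joining were lower without overlap on slide 1. Between slides 3 and 2, 4 of these 5 were higher, with a median of 0.27. Over the 12 arrays 0 of the 5 passed, with 1 at an unadjusted p under 0.05 in limma. Asns, which makes asparagine, had 1.12 and 1.54 in fipronil replicates 7 and 8, against -0.54 and -0.20 in control replicates 2 and 3, a difference of 1.70. Ddit3 (CHOP) differed by 1.14 on slide 1. The pseudokinase gene Trib3 had -0.49 and -0.20 in fipronil replicates 7 and 8, against -1.75 and -1.13 in control replicates 2 and 3. Both fipronil arrays of slide 1 thus lay above both controls for Asns and Trib3. Across the 12 arrays Ddit3 differed by 0.73 (adjusted p 0.189), Asns by 0.63 (adjusted p 0.34) and Trib3 by -0.27 (adjusted p 0.783). Control replicates 5 and 6, which were the highest for Eif4ebp1, were also the highest of the 12 arrays for Asns, Trib3 and Atf4. In replicates 5 and 6 Asns had 1.74 and 1.81, and Trib3 had 1.14 and 0.95.

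Promoters of 47 members were matched by symbol in RefSeq on assembly GRCr8, each running from 250 bases before to 50 bases after the gene start. The E-box CACGTG, a sequence bound by MYC and by several other helix-loop-helix factors, reads the same on both strands. It occurred in 8 of the 47 (17.0%), namely Eif1b, Eif3a, Eif3b, Eif3f, Eif4e, Eif4h, Eif5a and Eif5a2, against 6.65% of 27457 promoters. Those promoters were not matched to the members by expression or GC content, and the difference in share was not tested. The composite ATF4 element TGATGCAAT, searched on both strands, occurred in 0 of the 47 and in 0.19% of all promoters. Of the 3 members that were lower, Eif1b held an E-box and Eif1ax and Eif4a3 held none in this window. The promoters of Eif1b (chr8:129080908-129081207, plus strand) and Eif4e (chr2:229740503-229740802, plus strand), the cap-binding gene with 2 E-boxes, are printed with the motif in capitals. A match describes letters and does not show that a factor binds there.
Eif1b promoter: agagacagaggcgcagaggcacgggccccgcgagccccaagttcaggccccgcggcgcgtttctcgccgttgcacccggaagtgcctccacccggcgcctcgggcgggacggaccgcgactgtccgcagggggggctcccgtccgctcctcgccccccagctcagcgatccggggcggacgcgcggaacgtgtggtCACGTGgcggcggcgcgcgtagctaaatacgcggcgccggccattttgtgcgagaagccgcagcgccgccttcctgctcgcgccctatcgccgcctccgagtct
Eif4e promoter: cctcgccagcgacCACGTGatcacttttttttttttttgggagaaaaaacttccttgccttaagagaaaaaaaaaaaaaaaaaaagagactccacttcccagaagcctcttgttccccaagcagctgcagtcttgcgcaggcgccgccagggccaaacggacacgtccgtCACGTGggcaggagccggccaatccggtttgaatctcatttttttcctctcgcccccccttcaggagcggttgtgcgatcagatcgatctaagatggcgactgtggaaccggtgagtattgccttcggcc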

How the data were processed

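RNA of 12 samples, 6 exposed to fipronil and 6 controls, was read on one-colour arrays. Signals were extracted with Agilent Feature Extraction 10.7, per the submitters' processing notes, and the scanner files give background-subtracted processed intensity per spot, per the file headers. The other flags used (outlier, well above background) are the authors' deposited scanner calls. The deposited value table is on a log2 scale and quantile normalized, as its comparison with the scanner values shows (lowest correlation with its own array 0.994). No array had a saturated spot, and the number of arrays limits precision.

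The log2 processed signal minus each array's 75th percentile was computed, without outlier spots, and spots of a probe were averaged. A probe was kept if at least 0.5 of its spots were well above background on at least 6 arrays, and the brightest kept probe stood for its gene. Groups came from the sample labels, and slides from the file headers. Tests used limma 3.58.1 in R 4.3.3, two-sided, with Benjamini-Hochberg adjustment over all 13542 genes. They were also run on simulated data, with arrays drawn independently of each other. That simulation cannot show how often false calls arise where slide and treatment nearly coincide. Alternatives changed the background correction, scaling, filter, probe summary, slide or replicate block and the arrays included. Further alternatives (the GC trend removed, slide 1 without 1 fipronil array, the interaction, and the interaction without 1 fipronil array) were chosen after seeing the data.

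The members, the partner lists and the rule for named genes, which named 37 members and 8 partners, were chosen with earlier results of these data known. The rule took every member past the threshold, the eIF2 and eIF2B subunits, the kinases, Eif4e, the eIF4A, eIF4G and 4E-BP genes, up to 10 further members by smallest p and members whose probes disagreed in sign. It listed Eif4g1 too, although no probe had that gene name. It also took partners past the threshold and Atf4, Ddit3, Ppp1r15a, Trib3, Asns and Mtor. Other members named were chosen after their values were seen. Probe coordinates are those of rn4 in the files, and promoters are RefSeq's on GRCr8.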

Additional observations from a re-analysis of the deposited data

Results flagged for a closer look

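For 2 of the 74 groups of 6 arrays examined, 1 array stood far from the others by Dixon's criterion, which chance alone meets in about 1 group in 20. Eif2s3 in fipronil replicate 8 was at -2.328 (log2 relative to the 75th percentile), and the nearest fipronil array was at -1.32. Eif3e in fipronil replicate 8 was at 1.751, and the nearest fipronil array was at 2.85.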

How the results depend on the processing

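The count of members called, 3 in the reported setting, was 5 under quantile normalization (5.24% of all genes called), 5 in the deposited table (5.27%), 5 with the filter on all 12 arrays (9.1%), 6 with normexp and quantile normalization (7.47%), 22 with normexp and 75th percentile scaling (50% of all genes, whose median moved to 0.17), 10 with no filter (45.1% of all genes, median 0.55) and 11 with slides 2 and 3 only (22.5%). It was 14 at an unadjusted p, 3 with the GC trend removed (6.19% of all genes), 1 with slide as a random block and 0 with slide as a fixed block. Leaving out 1 array gave 1 to 11, with 11 without fipronil replicate 8 (14.9% of all genes) and 1 when fipronil replicate 1 or 3, or any of control replicates 5, 6 and 7, was dropped. The partner count, 2 as reported, was 15 with normexp and 75th percentile scaling, 5 with no filter, 12 with slides 2 and 3 only, 1 with the GC trend removed, 0 with either slide block, and 0 to 6 when 1 array was left out. The members' median, -0.10 as reported, was -0.20 under median scaling (all genes -0.18), -0.0503 with normexp and quantile normalization and -0.20 under the fixed slide block, and -0.13 to -0.08 when 1 array was left out. The count of members lower on slide 1, 34 as reported, was 28 under median scaling and 32 to 35 under the other scalings, filters and the GC correction, and 30 to 33 when 1 fipronil array was left out. With normexp and 75th percentile scaling Eif4e3 turned to 0.56 and Mtor to 0.60. The cause of these shifts was not tested.

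Replicate numbers 2, 3, 7 and 8 occur in both groups, and same-numbered samples correlated at 0.43, 0.08, -0.11 and -0.31 in their deviations. Samples with the same number lay on different slides, so these values cannot show whether the numbers pair them. With the replicate block limma called 0 members (5 had an unadjusted p below 0.05) and 0 partners.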
